A study of Mus musculus with 6 samples.

Results

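Tbp, Nono, Rpl13a and Hprt are 4 of the 15 genes that a transcript accession names on this mouse array, out of 60915 probes in all. Each is defined by its accession (NM_013684.3 for Tbp, NM_023144.2 for Nono, NM_009438.4 for Rpl13a and NM_013556.2 for Hprt), a rule that uses no measured value, and each has 1 probe printed in 20 spots. Cortex RNA was measured on 6 single-colour arrays: 3 from the sham group and 3 from the tMCAO group, in which the middle cerebral artery was blocked for a time and then reopened, as a model of ischemic stroke, with cortex taken 12 h after reperfusion. All mice were 8-week-old males, ribosomal RNA was removed from every sample, and the RNA was labelled by random priming along whole transcripts. The labels used here name no strain or occlusion time, call the samples brain, and give the cortex and the time of killing for tMCAO mice without a separate statement for sham. RNA was extracted mouse by mouse, but whether an array holds RNA of 1 mouse or of several is not said. The 3 samples of a group are described as independent experiments with no further detail, so p-values measure the spread between these samples.

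The 4 genes serve basic steps of the cell. Tbp encodes the TATA-binding protein, the subunit of TFIID that contacts the core promoter and is needed by RNA polymerases I, II and III. Nono encodes an RNA- and DNA-binding protein of the DBHS family, found in paraspeckles and active in transcription and splicing. Rpl13a encodes a protein of the large ribosomal subunit that has a further role in silencing the translation of inflammatory transcripts. Hprt encodes the enzyme that returns hypoxanthine and guanine to the nucleotide pool, the salvage route for purines, which ischemic brain loses as it breaks down ATP. All are in common use as reference genes, whose level is taken as fixed when other genes are measured. The question was how fixed each was between sham and ischemic cortex.

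The genes lie on 3 chromosomes: Tbp on 17, Rpl13a on 7, and Nono and Hprt on X. The sequences upstream of their starts are shown because Tbp encodes the protein that binds the TATA motif. They come from RefSeq (GRCm38.p6), whereas the array's design names mm9, and all 4 genes were matched by symbol. The motif TATAAA was found, on either strand, in the 250 bases upstream of 0 of the 4 genes and of 12.4% of 32851 promoters in the same table. The GC box CCGCCC was found for Tbp, Rpl13a and Hprt and in 32.7% of all promoters, CCAAT for Nono and Rpl13a and in 33.9%, and the ETS core CCGGAA for Tbp and Hprt and in 12.0%. In the 100 bases upstream of the start shown here, 5′ to 3′ on the gene's strand, capitals mark these motifs, of which the GC box and the ETS core overlap in Tbp and ETS cores of both strands overlap in Hprt. For Nono the start in the table lies inside the annotated gene, and no stretch is shown.
Tbp, chr17:15499788-15499887, plus strand: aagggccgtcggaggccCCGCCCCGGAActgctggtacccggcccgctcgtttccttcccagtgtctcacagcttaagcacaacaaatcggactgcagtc
Rpl13a, chr7:45128746-45128845, minus strand: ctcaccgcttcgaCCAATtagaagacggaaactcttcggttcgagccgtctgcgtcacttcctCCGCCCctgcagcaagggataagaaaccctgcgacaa
Hprt, chrX:52987978-52988077, plus strand: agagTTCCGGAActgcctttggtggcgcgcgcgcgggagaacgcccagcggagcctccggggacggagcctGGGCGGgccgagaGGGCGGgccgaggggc
These stretches describe the genes and were not measured by the array.

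All 6 arrays lay on 1 slide and were read in 1 scan, per the file headers. The 75th percentile of the processed signal ranged from 537.2 to 934.6 intensity units over the arrays, and 0 spots were saturated. It was highest on tMCAO replicates 1 and 2 and lowest on tMCAO replicate 3, so the tMCAO arrays included both ends of the range. A level below is the log2 signal minus the log2 of that percentile, averaged over a gene's spots. Because no transcript of a neuron, glial, immune or vascular marker list is named on the array, the cell makeup of the samples could not be examined. Fewer cells of a type and less RNA per cell cannot be told apart in such tissue.

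None of the 4 genes passed the test between tMCAO and sham (limma, Benjamini-Hochberg over 44292 tested probes, threshold 0.05), where 1.42% of all tested probes did, 1.23% higher and 0.187% lower after tMCAO. At an unadjusted p under 0.05 (limma) the count was also 0 of 4, against 17.9% of tested probes. The groups overlapped for all 4, whereas they did not overlap for 24.7% of tested probes. Tbp lay above sham and the other 3 below, with a median difference of -0.059 log2 units over the 4 against -0.050 over all tested probes. All 480 spots of the 4 genes were well above background.

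Tbp, the promoter-binding factor, varied most. In sham its level was 0.71, 0.60 and 0.65, in the order of the replicate numbers, which is kept throughout. In tMCAO it was 1.12, 0.82 and 0.68. The sham arrays lay close together, tMCAO replicates 1 and 2 lay above all of them, and tMCAO replicate 3 lay within the sham range. The means were 0.65 ± 0.05 and 0.88 ± 0.22 (SD, n = 3 each), a difference of 0.23 ± 0.14 log2 units (SE), or 1.17-fold, with a 95% interval from 0.940-fold to 1.45-fold (limma, adjusted p = 0.401). The difference was 0.10 without tMCAO replicate 1 (limma, adjusted p = 0.711) and 0.32 without tMCAO replicate 3 (limma, adjusted p = 0.165, the lowest over the 20 alternatives). Its size therefore rested on single tMCAO arrays.

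Nono, the paraspeckle protein, showed the smallest difference of the 4. In sham its level was 2.22, 2.27 and 2.34, and in tMCAO 2.41, 2.17 and 2.17. tMCAO replicate 1 lay above every sham array and the other 2 tMCAO arrays lay below every sham array. The means were 2.28 ± 0.06 and 2.25 ± 0.14 (SD, n = 3 each), which differed by -0.026 ± 0.117 log2 units (SE), or 0.982-fold, with a 95% interval from 0.815-fold to 1.18-fold (limma, adjusted p = 0.921). The small mean difference thus came from tMCAO arrays on both sides of sham, and its sign turned under other processing, to 0.042 with median centring.

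Rpl13a, the ribosomal protein gene, lay slightly below sham. In sham its level was 3.43, 3.59 and 3.51, and in tMCAO 3.47, 3.44 and 3.27. All tMCAO arrays lay below sham replicates 2 and 3, and sham replicate 1 lay between tMCAO replicates 2 and 3. The means were 3.51 ± 0.08 and 3.39 ± 0.11 (SD, n = 3 each), which differed by -0.11 ± 0.11 log2 units (SE), or 0.924-fold, with a 95% interval from 0.770-fold to 1.11-fold (limma, adjusted p = 0.602). Without tMCAO replicate 3 the difference was -0.051.

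Hprt, the purine salvage enzyme, had the narrowest spread of the 4. In sham its level was 7.22, 7.11 and 7.03, and in tMCAO 7.02, 7.00 and 7.07. tMCAO replicates 1 and 2 lay just below the lowest sham array, and tMCAO replicate 3 between sham replicates 2 and 3. The means were 7.12 ± 0.10 and 7.03 ± 0.04 (SD, n = 3 each), which differed by -0.091 ± 0.107 log2 units (SE), or 0.939-fold, with a 95% interval from 0.790-fold to 1.11-fold (limma, adjusted p = 0.659). Without sham replicate 1 the difference was -0.040.

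**Figure D1:**
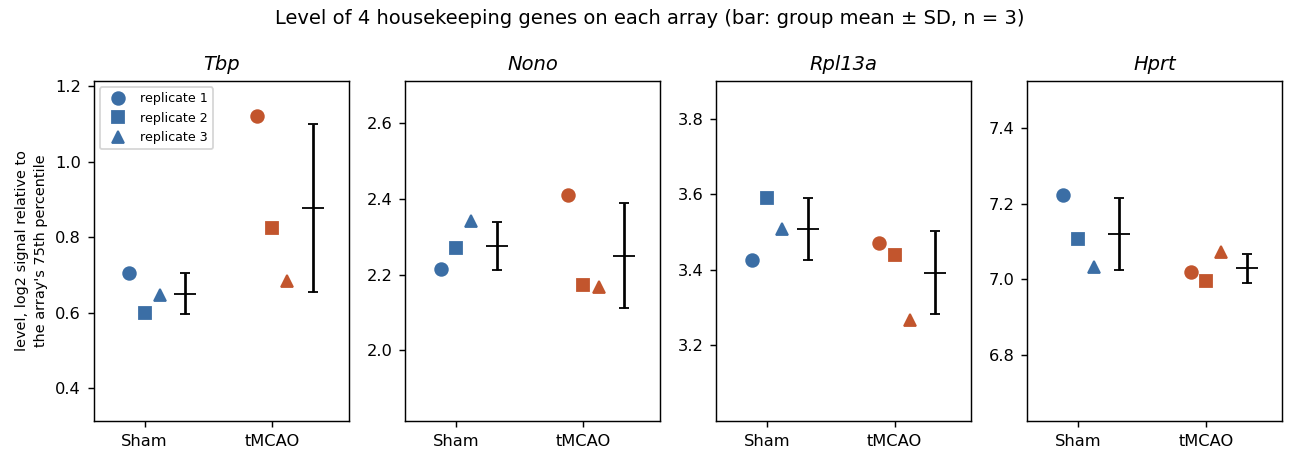
Level of Tbp, Nono, Rpl13a and Hprt (log2 signal relative to the array's 75th percentile, vertical axes of equal length) on 3 sham and 3 tMCAO arrays, with group means ± SD (n = 3). Tbp on tMCAO replicate 1, at 1.12, stands highest above its sham arrays, and the groups overlap for all 4 genes.

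A missed threshold does not show that a level was fixed, and the intervals give the limits. Changes beyond 1.18-fold upward lay outside the intervals of Nono, Rpl13a and Hprt, as did falls below 0.770-fold. For Tbp the interval reached 1.45-fold upward. These limits belong to the scaling used for the levels above. With quantile normalization the difference was -0.25 ± 0.12 log2 units for Hprt and -0.18 ± 0.10 for Rpl13a (limma SE). In the authors' deposited table it was -0.25 ± 0.13 and -0.19 ± 0.099. Both differences moved upward instead with median centring, normexp background correction or no scaling. The bound on falls was therefore not settled for Hprt and Rpl13a. The difference needed for a call follows from the gene's limma SE, which also draws on other probes, and the p at which probes passed. It was 0.57 log2 units (1.49-fold) for Hprt, 0.61 (1.52-fold) for Rpl13a, 0.62 (1.54-fold) for Nono and 0.73 (1.66-fold) for Tbp.

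A level was read precisely within an array. The 20 spots of a gene had a coefficient of variation between 1.32% and 3.71% on an array, over all 4 genes. The standard error of a level from its spots was at most 0.012 log2 units, on tMCAO replicate 1 for Tbp. That error covers the printing and reading of spots alone and not the sample or its labelling. The SD over the 6 arrays, which holds all of these, was 0.19 for Tbp, 0.11 for Rpl13a, 0.097 for Nono and 0.082 for Hprt. Of 480 spots, 16 carried an outlier mark, 7 of them of Hprt, 5 of Rpl13a, 3 of Nono and 1 of Tbp. They were left out of the levels, coefficients of variation and standard errors. The spread of spots did not separate the groups: for Tbp the sham arrays gave a coefficient of 3.17% ± 0.35 and the tMCAO arrays one of 2.72% ± 0.87 (SD, n = 3 each), with an exact two-sided permutation p of 0.5, where the smallest possible is 0.1, and for the other 3 genes the exact permutation p lay between 0.4 and 1.

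**Figure D2:**
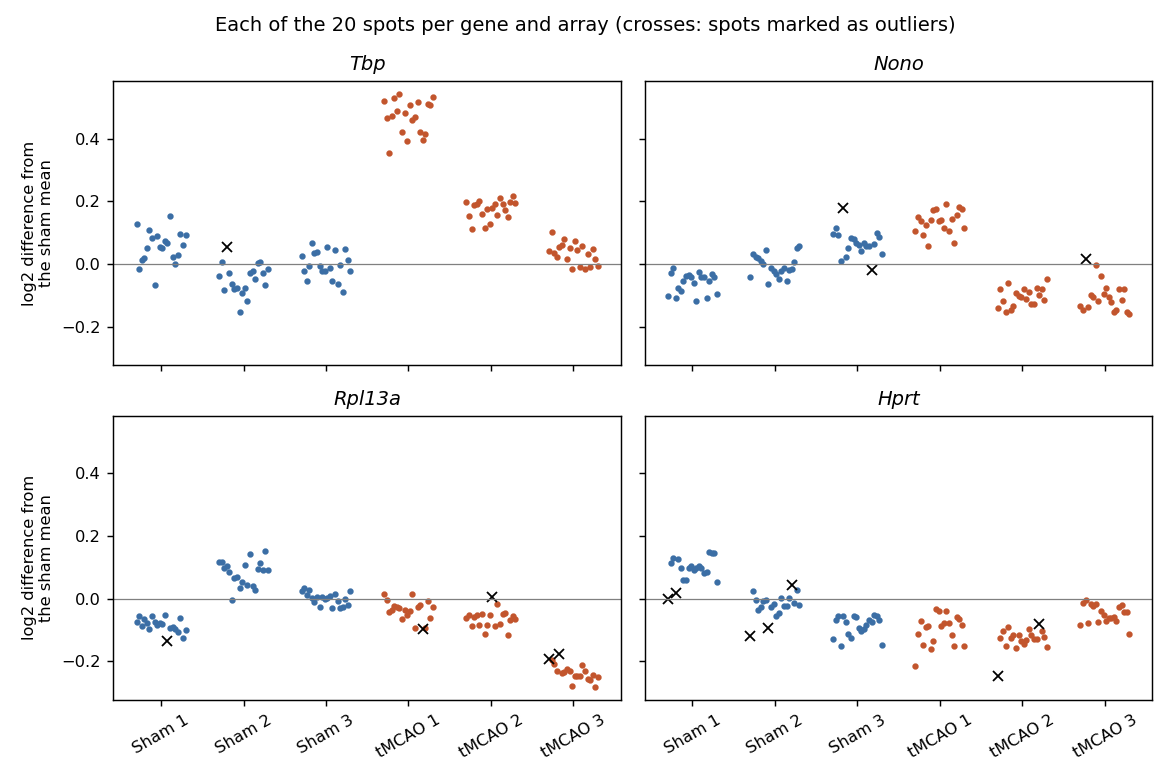
Each spot of Tbp, Nono, Rpl13a and Hprt as a log2 difference from the gene's sham mean, for the 20 spots per gene on each of the 6 arrays, with outlier-marked spots as crosses. Spots of 1 array cluster within a narrower band than the arrays differ, most plainly for Tbp on tMCAO replicate 1.

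Taken one spot position at a time, the genes gave the same picture. Outlier-marked spots were kept for these differences and for the correlations that follow. All 20 Tbp positions lay above sham in tMCAO, by 0.19 to 0.27 log2 units, and 0 of 20 positions did for Rpl13a and for Hprt. Nono was above sham at 4 of its 20 positions, with differences from -0.065 to 0.019. Spots share the RNA of their array and are not replicates. For Hprt many positions kept their side of the array mean from array to array, though not all did: the spots' deviations from their array mean correlated across positions with a median r of 0.68 over the 15 pairs of arrays (range 0.33 to 0.84). The median was 0.43 for Tbp, 0.11 for Nono and 0.051 for Rpl13a, with single pairs between -0.33 and 0.77 over these genes. The positions are not independent replicates.

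Set against other probes of like signal, 3 of the 4 genes varied little. Among the tested probes whose mean level lay within 0.5 log2 units, a smaller SD over the 6 arrays than the gene's own was found for 11.3% of 2480 probes around Nono, 19.9% of 1808 around Rpl13a and 25.3% of 566 around Hprt. Around Tbp it was found for 58.4% of 3705 probes. The genes' values average 20 spots and nearly all other probes have 1. With the median SD of single spot positions (outlier-marked spots kept) in place of the averaged value, the shares were 13.3%, 19.7%, 24.0% and 59.8% in the same order. By the SD within groups, from averaged values, they were 25.1%, 22.5%, 24.0% and 57.3%.

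The SD over arrays depended on single arrays for 3 genes. Without tMCAO replicate 1 that of Tbp was 0.085, in place of 0.19, and the 4 genes then lay between 0.073 and 0.119. Without tMCAO replicate 3 that of Rpl13a was 0.065, and without sham replicate 1 that of Hprt was 0.043. That of Nono lay between 0.073 and 0.109 without any 1 array. Among the 15 accession-named genes, Hprt ranked 2, Nono 3, Rpl13a 5 and Tbp 10 by the SD over arrays, counted from the narrowest. The other 11 had SDs from 0.021 (G6pd2) to 0.31 (B2m) with a median of 0.16, and their median difference between groups was -0.0047 log2 units, with 0 of 11 past the threshold (limma) in either direction. That median does not mean that they were unchanged: 5 lay above sham and 6 below. The groups did not overlap for 4 of the 11, against 24.7% of tested probes. B2m differed by 0.56 log2 units (limma, adjusted p = 0.0530).

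Without any scaling, the mean intensity of Hprt ranged from 72253 to 121366 units over the arrays, a 1.68-fold range, close to the 1.74-fold range of the 75th percentile itself. The range was 2.01-fold for Rpl13a, 2.06-fold for Nono and 2.35-fold for Tbp. For all 4 genes the lowest array was tMCAO replicate 3 and the highest tMCAO replicate 1. The brightness of a probe is no measure of abundance, but it placed the genes differently for normalization: 98.4% of tested probes were dimmer than that of Hprt, 89.2% than that of Rpl13a, 83.4% than that of Nono and 73.1% than that of Tbp.

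The spread of Hprt changed place among the 4 with the normalization. With quantile normalization its SD over arrays was 0.18 and its difference -0.25 log2 units (limma, adjusted p = 0.296), and in the authors' deposited table these were 0.19 and -0.25 (limma, adjusted p = 0.317). It thus had the widest spread of the 4 there, against 0.11 for Nono, 0.11 to 0.12 for Rpl13a and 0.17 for Tbp. With the 75th percentile taken over probes detected on all arrays, the SDs of Nono, Rpl13a and Hprt were 0.1003, 0.103 and 0.103. Nono ranked 1 or 2 of the 4 in each of these scalings, but ranked 3 without sham replicate 2 or without tMCAO replicate 3 under the 75th percentile. Hprt ranked 1 with all arrays, 3 without tMCAO replicate 1 and 2 without tMCAO replicate 3, so the order of the narrower 3 was not settled.

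**Figure D3:**
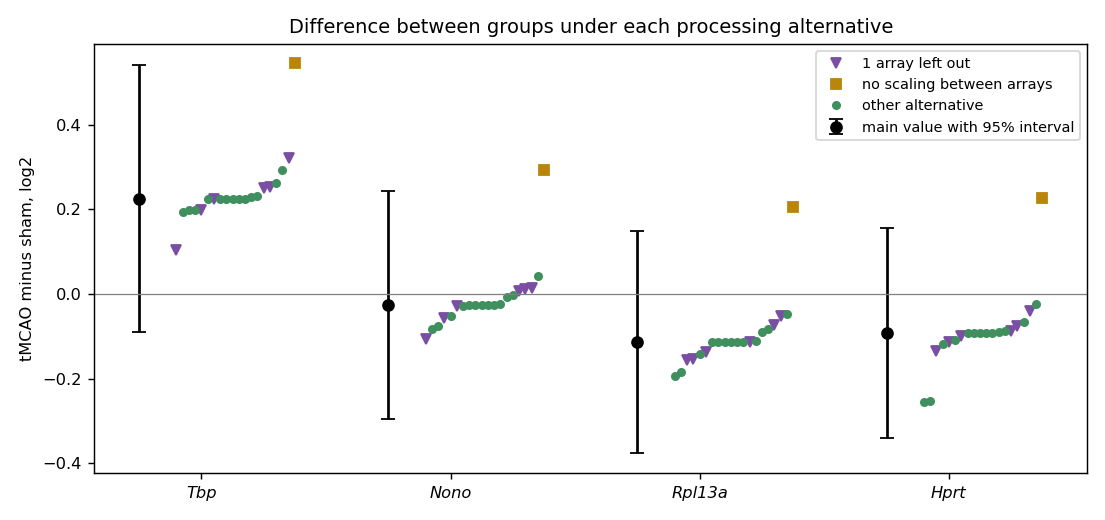
Difference between tMCAO and sham (log2 units) for Tbp, Nono, Rpl13a and Hprt: the main value with its 95% interval, and the values with 1 array left out, with no scaling between arrays, and under the other alternatives. Tbp stays above 0 under each alternative, Nono falls on both sides, and Hprt and Rpl13a are above 0 with no scaling alone.

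Ratios between the 4 genes within an array do not depend on the factor that scales the array. The largest differences between groups among them were those of the ratios with Tbp. Relative to the sham mean of the same ratio, Tbp over Nono in sham was 0.12, -0.047 and -0.068 log2 units. In tMCAO it was 0.34, 0.28 and 0.14. Every tMCAO array lay above every sham array, the nearest values being those of sham replicate 1 and tMCAO replicate 3. The ratio differed by 0.25 ± 0.08 log2 units (SE, n = 3 each), or 1.19-fold. The SE given with a ratio, here and below, comes from that ratio's own values alone. It is not a limma SE, which also draws on other probes, and cannot be set beside those of single genes. In the limma fits scaled to 1 gene, described below, the SE for Tbp was 0.13 against Nono, 0.14 against Rpl13a and 0.15 against Hprt.

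Tbp over Rpl13a in sham was 0.14, -0.13 and -0.0029, and in tMCAO 0.50, 0.24 and 0.27, again without overlap. It differed by 0.34 ± 0.11 log2 units (SE, n = 3 each), or 1.27-fold. Tbp over Hprt was -0.046, -0.038 and 0.084 in sham and 0.57, 0.30 and 0.083 in tMCAO, where tMCAO replicate 3 just overlapped with sham replicate 3. This ratio differed by 0.32 ± 0.15 log2 units (SE, n = 3 each), or 1.25-fold.

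The groups thus did not overlap for 2 of 6 ratios, both with Tbp and both higher in tMCAO. These 2 ratios share the same Tbp values. Of all tested probes, the ratio to Nono was higher without overlap for 12.4%, the ratio to Rpl13a for 18.9% and the ratio to Hprt for 16.7%. These shares count the higher direction alone, so such a ratio was not particular to Tbp. In fits over all probes scaled to each of these genes, in which 1.17% (Nono), 1.98% (Rpl13a) and 2.01% (Hprt) of probes passed the threshold, Tbp did not (limma, adjusted p = 0.482 against Nono, 0.337 against Rpl13a and 0.339 against Hprt). Tbp over Nono and Tbp over Rpl13a also did not overlap in the 5 alternatives that can alter a ratio (quantile normalization, normexp background correction, the authors' deposited table, outlier spots kept and the median over spots), at 0.24 to 0.28 and 0.32 to 0.39 log2 units. With 1 array left out at a time the differences of these 2 ratios ran from 0.21 to 0.31 and from 0.26 to 0.41. Tbp over Hprt did not overlap in 4 of those 5 alternatives, and was 0.19 without tMCAO replicate 1.

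The 3 ratios without Tbp overlapped between groups. Nono over Rpl13a differed by 0.088 ± 0.078 log2 units (SE), Nono over Hprt by 0.065 ± 0.126 and Rpl13a over Hprt by -0.023 ± 0.125 (n = 3 each). The limma SEs, from fits scaled to the second gene of the ratio, were 0.13, 0.14 and 0.14 in the same order. The sign of Nono over Hprt turned without sham replicate 1 or tMCAO replicate 1, and that of Rpl13a over Hprt without sham replicate 2 or 3 or tMCAO replicate 3, with quantile normalization (0.071) and in the authors' deposited table (0.061). Without tMCAO replicate 2 the groups did not overlap for Nono over Rpl13a (0.15), nor without sham replicate 1 for Rpl13a over Hprt (-0.11). The SD over 6 arrays was 0.098 for Nono over Rpl13a, 0.14 for both ratios to Hprt, and 0.16, 0.22 and 0.24 for Tbp over Nono, Rpl13a and Hprt. The mean SD of a gene's 3 ratios, the measure used to rank reference genes by their steadiness against each other, was 0.14 for Nono, 0.15 for Rpl13a, 0.17 for Hprt and 0.21 for Tbp. Taken over a gene's ratios to all other accession-named genes, the mean SD was 0.19 for both Hprt (rank 2 of 15) and Nono (rank 3), 0.21 for Rpl13a (rank 7) and 0.24 for Tbp (rank 10).

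**Figure D4:**
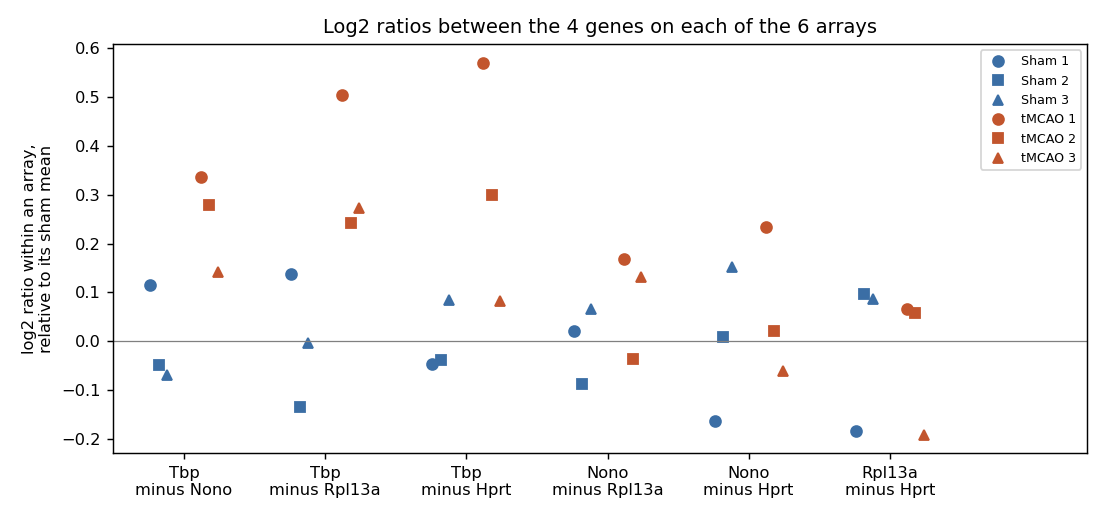
Log2 ratio of each pair of Tbp, Nono, Rpl13a and Hprt within an array, relative to the mean of that ratio in sham, for 3 sham and 3 tMCAO arrays. The groups are apart for Tbp over Nono and Tbp over Rpl13a, and overlap for the other 4 ratios.

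Over the 6 arrays the level of Tbp ran most like that of Gusb (Pearson's r = 0.89) and Hsp90ab1 (0.76) among the other 11 named genes. Nono was most like Hsp90ab1 (0.62) and Gk (0.50, over 5 arrays because outlier marks removed 1 value), Hprt most like Gapdh (0.54) and Ppia (0.48), and Rpl13a most like Tuba1b (0.29) and Hsp90ab1 (0.27). Among the 4 genes themselves r lay between -0.42 (Tbp with Hprt) and 0.55 (Nono with Rpl13a). These values describe 6 arrays that share 1 slide and 1 scaling.

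The arrays lay in 2 rows of the slide, with replicates 1 and 2 of both groups in row 1 and replicate 3 of both in row 2. In row 1 the tMCAO arrays held columns 1 and 2 and the sham arrays columns 3 and 4. In row 2 the sham array held column 1 and the tMCAO array column 2. Group and column thus cannot be told apart within a row, and a row block does not account for columns. In row 1 (2 arrays per group) the difference between tMCAO and sham was 0.32 for Tbp, 0.048 for Nono, -0.051 for Rpl13a and -0.16 for Hprt. In row 2 (1 array per group) it was 0.036, -0.17, -0.24 and 0.038 in the same order. Tbp and Rpl13a kept their sign in both rows, Nono and Hprt did not. With the row as a block 0 of the 4 genes passed the threshold, against 1.33% of all tested probes (limma, adjusted p from 0.368 for Tbp to 0.920 for Nono).

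As references, the genes gave different accounts of the same arrays. Each array was scaled to 1 gene in place of the 75th percentile, and the test was run over all other probes. With the 75th percentile 547 probes were higher and 83 lower after tMCAO (limma), so that 86.8% of the 630 called probes were higher. Scaled to Nono, 482 were higher and 36 lower, and 458 of these 518 were among the 630 (88.4% of the former, 72.7% of the latter). Scaled to Hprt, 834 were higher and 58 lower, with 598 shared (67.0% of the 892 and 94.9% of the 630).

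Scaled to Rpl13a, 848 were higher and 29 lower, with 557 shared (63.5% of the 877 and 88.4% of the 630). Scaled to Tbp, 0.361% of probes passed, 118 higher and 42 lower, with 150 shared (93.8% of the 160 and 23.8% of the 630). The higher share among called probes was thus 73.8% with Tbp and between 93.1% and 96.7% with the other 3. The mean of the 4 genes gave 431 higher and 47 lower, with 466 shared. These shares describe called probes alone. At an unadjusted p under 0.05 (limma), 1169 probes were higher and 9127 lower when scaled to Tbp. With the percentile scaling used for the levels, 3766 were higher and 4164 lower. Higher probes were the more numerous with Nono (3624 and 1759), Hprt (5607 and 1560) and Rpl13a (5630 and 651).

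Scaling to 1 gene moves every probe by the same amount on an array, so the median difference over all probes is the one with the 75th percentile, -0.050 log2 units, less the gene's own difference. It was -0.28 with Tbp, -0.024 with Nono, 0.042 with Hprt and 0.064 with Rpl13a. For the same reason a gene's own deviations within a group enter every probe scaled to it. The median SD of a probe within groups was 0.17 log2 units with the 75th percentile, which is itself taken from these probes, 0.18 with Hprt, 0.20 with Nono, 0.21 with Rpl13a and 0.24 with Tbp. The counts of called probes above carry both of these effects.

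**Figure D5:**
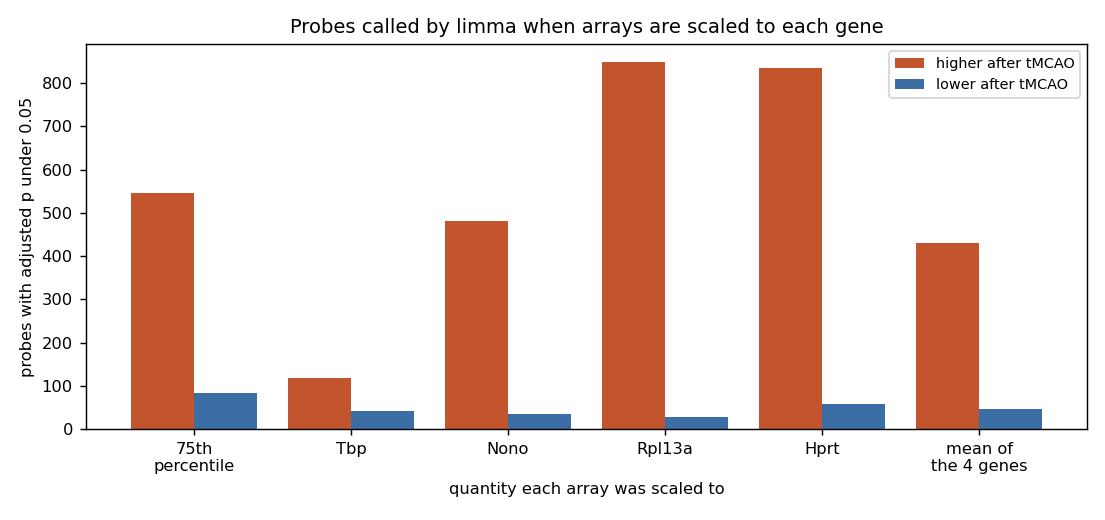
Number of probes higher or lower after tMCAO (limma, adjusted p under 0.05) when each array was scaled to its 75th percentile, to Tbp, Nono, Rpl13a or Hprt, or to the mean of the 4. Scaling to Tbp gives 118 higher and 42 lower, against 848 and 29 with Rpl13a.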

How the data were processed

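Per the submitters' processing notes, spots were read with Agilent Feature Extraction 11.0.1.1. The authors deposited each spot's intensity on a linear scale, background-subtracted per the file headers and not normalized between arrays. They also deposited a table of log2 values normalized by a method not given in the sources used here. Its column medians are all 6.89, each column tracks its own array (r at least 0.9999), its centring is unknown, and it served as an alternative.

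Of 61500 non-control spots on an array, 300 negative spots were left out. The log2 processed signal minus the log2 of the 75th percentile was averaged over a probe's spots without outlier marks. Probes well above background on at least 3 arrays, with at least 2 values per group, were tested: 44292 of 60915. Groups were compared with limma 3.58.1 (lmFit and eBayes, two-sided) in R 4.3.3, with 4 residual degrees of freedom before moderation. Plots used matplotlib 3.10.9. All 15 accessions matched a symbol in RefSeq's table. The script was tested on simulated data.

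The members are found by accession alone, but the choice to describe these genes together, and the lists and rules, were made with earlier results of these data known. All 4 members are named, with the 2 other accession-named genes most like each and those with the widest and narrowest spread. No design code is named. Each of 4 pathway lists (general transcription, DBHS and paraspeckle, ribosomal proteins, purine salvage and synthesis) held 1 named gene, the member itself, and 6 marker lists of neurons, glia, immune cells and endothelium held 0. Probe sequences were not used, so cross-hybridization, for example with processed copies of Rpl13a, was not assessed. The number of arrays limits the precision.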

Additional observations from a re-analysis of the deposited data

How the results depend on the processing

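Over 20 alternatives, of which the slide row was added after the data were seen, 0 of the 4 genes passed the threshold (limma, lowest adjusted p 0.165, for Tbp without tMCAO replicate 3). Tbp kept its sign in all 20. Nono turned to 0.042 with median centring and to 0.29 with no scaling, where Rpl13a turned to 0.21 and Hprt to 0.23. With no scaling the median of all probes moved as well, from -0.050 to 0.27. Without 1 array the differences ran from 0.10 to 0.32 for Tbp, -0.11 to 0.015 for Nono (above 0 without sham replicate 3 or tMCAO replicate 2 or 3), -0.16 to -0.051 for Rpl13a and -0.13 to -0.040 for Hprt. The SD over arrays moved to 0.51 (Tbp), 0.41 (Nono), 0.40 (Rpl13a) and 0.30 (Hprt) with no scaling, and for Hprt to 0.18 with quantile normalization and 0.19 in the authors' table. The 630 probes called became 1292 with no scaling (1279 higher, 13 lower), 370 with normexp, 263 with no filter on dim probes, 388 with the replicate block and 160 scaled to Tbp, the cause not being tested. They were 117, 222 and 155 without sham replicates 1, 2 and 3, and 101, 396 and 1047 without tMCAO replicates 1, 2 and 3. Deviations of same-numbered arrays correlated at 0.021, 0.095 and 0.13, and those of differently numbered arrays at -0.22 to 0.15. With 3 arrays per group these values cannot settle whether replicate numbers pair the arrays, and nothing in the labels says that they do. Under the replicate block adjusted p was 0.384 for Tbp, 0.930 for Nono, 0.637 for Rpl13a and 0.702 for Hprt (limma). A slide or scan block was not run, since 1 slide and 1 scan held every array.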
